A study of Mus musculus with 18 samples.

Results

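The IL-27 response of mouse naive CD4 T cells was compared between wild type (WT) and STAT3-deficient cells, gene by gene. The quantity described is the change with interleukin 27 (IL-27) in STAT3-deficient cells minus the change with IL-27 in WT cells, called here the genotype difference in the IL-27 effect. It was taken from 4 groups of 3 arrays, which are 12 of the 18 arrays of the series. It gives a log2 value that is below 0 where IL-27 raised a gene less, or lowered it more, without STAT3. Over 11971 genes tested it passed the threshold for 2, Elovl6 and Xaf1.

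The cells were sorted by flow cytometry from spleen and lymph nodes as CD4+CD44-CD62L+CD25- cells, a surface pattern of naive CD4 T cells, from mice of the strain C57BL/6J. The genotype of the STAT3-deficient group is given as Cd4-Cre_C57BL6-STAT3<tm1Dlv> (STAT3KO). The other group is given as wild type, with no Cre named. In each genotype 3 arrays came from cells kept for 3 hours in medium alone and 3 from cells kept for 3 hours with IL-27 at 20 ng/ml. The 6 arrays of cells given interleukin 6 (IL-6) at 20 ng/ml served as a second cytokine for the last comparisons. Total RNA was labelled with biotin and measured on Affymetrix whole-genome mouse arrays. Cd4-Cre acts in T cells, so the other cell types of these mice keep Stat3. The labels give neither age nor sex of the mice and do not say whether mice were pooled. The series describes its conditions as biological triplicates, and the p-values measure the spread between these arrays.

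IL-27 is a cytokine of the IL-6 and IL-12 family that signals through its own receptor chain, IL-27RA, together with gp130, the chain that IL-6 also uses and that Il6st encodes. Janus kinases bound to these chains activate STAT3 among other factors. IL-27 is also known for inducing interferon-stimulated genes such as Irf1 and the guanylate-binding proteins. STAT3 is best known for inducing Socs3, Bcl3, Batf and other genes of the IL-6 response, and SOCS3 in turn inhibits signalling through gp130.

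Values are log2 of the signal plus 32 after quantile normalisation, and differences are given with the standard error (SE) of a limma model over 3 arrays per group, or with a 95% confidence interval. A gene was called where the Benjamini-Hochberg adjusted p from limma was under 0.05. In a principal component analysis the 33.1% of variance on the first axis set apart the 9 WT and the 9 STAT3-deficient arrays. The median deposited signal of an array ran from 104.4 to 126.8 in the WT medium and IL-27 groups, from 172.2 to 190.3 in STAT3-deficient medium and from 132.9 to 174.6 in STAT3-deficient IL-27. The STAT3-deficient arrays thus had the higher medians, and those of STAT3-deficient medium included the highest of all. The genotypes also differed, without overlap, in a control ratio, the log2 signal at the end of a control transcript minus that at its start. For Gapdh it was -0.96 to -0.82 on WT arrays and -0.54 to -0.27 on STAT3-deficient arrays, those of IL-6 included. For Actb it was 0.47 to 0.56 and 0.6 to 0.71. With median centring in place of quantile normalisation, the median genotype difference over all genes was 0.25, against 0.034 as reported, so values near 0 are read below relative to the scaling. All 10 CD4 T cell markers measured lay above the array medians in each group. The summed deposited signal of 10 B cell markers was 792 to 865 in WT medium, 882 to 1163 in WT IL-27, 3082 to 5404 in STAT3-deficient medium and 3152 to 5815 in STAT3-deficient IL-27. For 9 myeloid markers the sums were 431 to 669, 608 to 780, 2784 to 7480 and 3081 to 6895, in the same order. Both sums were thus higher in the STAT3-deficient groups, and their ranges overlapped between medium and IL-27 within that genotype. Not every marker went that way. In medium, 7 of the 15 myeloid markers of the gene lists below were called higher without STAT3 and 2 lower. Of the 14 B cell markers 11 were called higher and 0 lower. In bulk RNA more cells of a type and more RNA per cell cannot be told apart.

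Stat3 itself was checked first. In medium its level was 11.18 to 11.54 in WT arrays and 10.18 to 10.36 in STAT3-deficient arrays, a difference of -1.11 (limma, adjusted p = 1.73e-05). With IL-27 it was 12.83 to 13.07 in WT arrays and 11.72 to 12.18 in STAT3-deficient arrays. By the probe set used, the STAT3-deficient arrays lay below the WT arrays in both conditions, without overlap, as the labels would have it. IL-27 raised the remaining Stat3 signal by 1.57 in WT and 1.77 in STAT3-deficient cells, with a genotype difference of 0.2 ± 0.17 (SE; limma, adjusted p = 0.762). The probe sets of Stat3 did not all read alike. The other 3 gave genotype differences of -1.01 ± 0.38, 0.066 ± 0.18 and 0.073 ± 0.28. Their STAT3-deficient minus WT levels, in the same order, were 0.8, -0.92 and 0.12 in medium and -0.21, -0.85 and 0.19 with IL-27. The second of them was thus lower without STAT3 in both conditions, and the others were not. Which of these lie in the deleted part of the gene was not tested.

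Few genes had an IL-27 effect that differed between the genotypes beyond the adjusted threshold. Of 11971 genes, 2 were called (0.0167%), 1 with a higher value without STAT3 (Xaf1, 0.00835%) and 1 with a lower value (Elovl6, 0.00835%). At an unadjusted p under 0.05 there were 878 genes (7.33%), 424 higher (3.54%) and 454 lower (3.79%). The split between directions depended on the scaling, being 1066 higher and 217 lower with median centring, while the deposited scaling gave 428 and 561. Because under 10 genes were called, the 20 genes with the smallest p are described below. In 11 of them the rise with IL-27 in WT cells was called and the STAT3-deficient value was smaller, in 6 the rise in STAT3-deficient cells was called and was the larger, in 2 a fall in STAT3-deficient cells was called, and 1 had no called IL-27 effect in either genotype. These are descriptions of the genes at the top of the ranking, and only Elovl6 and Xaf1 among them passed the adjusted threshold.

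Elovl6 had the clearest loss. It encodes the fatty acid elongase that lengthens saturated and monounsaturated fatty acids of intermediate chain length. Its values were 8.75, 8.65 and 8.83 on the WT medium arrays and 11.15, 10.95 and 10.87 on the WT IL-27 arrays. On the STAT3-deficient arrays they were 7.96, 8.09 and 8.4 in medium and 8.56, 8.65 and 8.82 with IL-27. In each genotype the IL-27 arrays lay above the medium arrays, and the STAT3-deficient IL-27 arrays lay within or below the range of WT cells in medium. IL-27 raised Elovl6 by 2.24 in WT cells, a 4.73-fold rise, and by 0.53 in STAT3-deficient cells, a 1.44-fold rise that was still called (limma, adjusted p = 0.0166). The genotype difference was -1.72 ± 0.18 (95% interval -2.09 to -1.34; limma, adjusted p = 9.08e-05). A second probe set gave -1.47 ± 0.27, in the same direction but not called in a fit over 21539 probe sets (adjusted p = 0.166). Tested against a minimum of 2-fold, Elovl6 was no longer called (adjusted p = 1). The level of Elovl6 without STAT3 was also lower in medium, with a difference of -0.59 (limma, adjusted p = 0.00284).

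The window around the transcription start of Elovl6 is shown as the sequence of the gene whose response fell most clearly without STAT3. It lies on the plus strand at chr3:129532136-129532435 of GRCm38.p6 (RefSeq), from 250 bases before the annotated start to 50 bases after it, and carries no capitals because neither motif searched below occurs in it.
Elovl6: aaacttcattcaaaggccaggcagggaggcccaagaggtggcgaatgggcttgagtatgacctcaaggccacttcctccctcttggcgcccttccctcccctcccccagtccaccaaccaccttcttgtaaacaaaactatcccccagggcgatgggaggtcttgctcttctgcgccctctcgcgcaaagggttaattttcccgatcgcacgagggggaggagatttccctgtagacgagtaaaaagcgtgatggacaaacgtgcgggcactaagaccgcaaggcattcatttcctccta

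**Figure D1:**
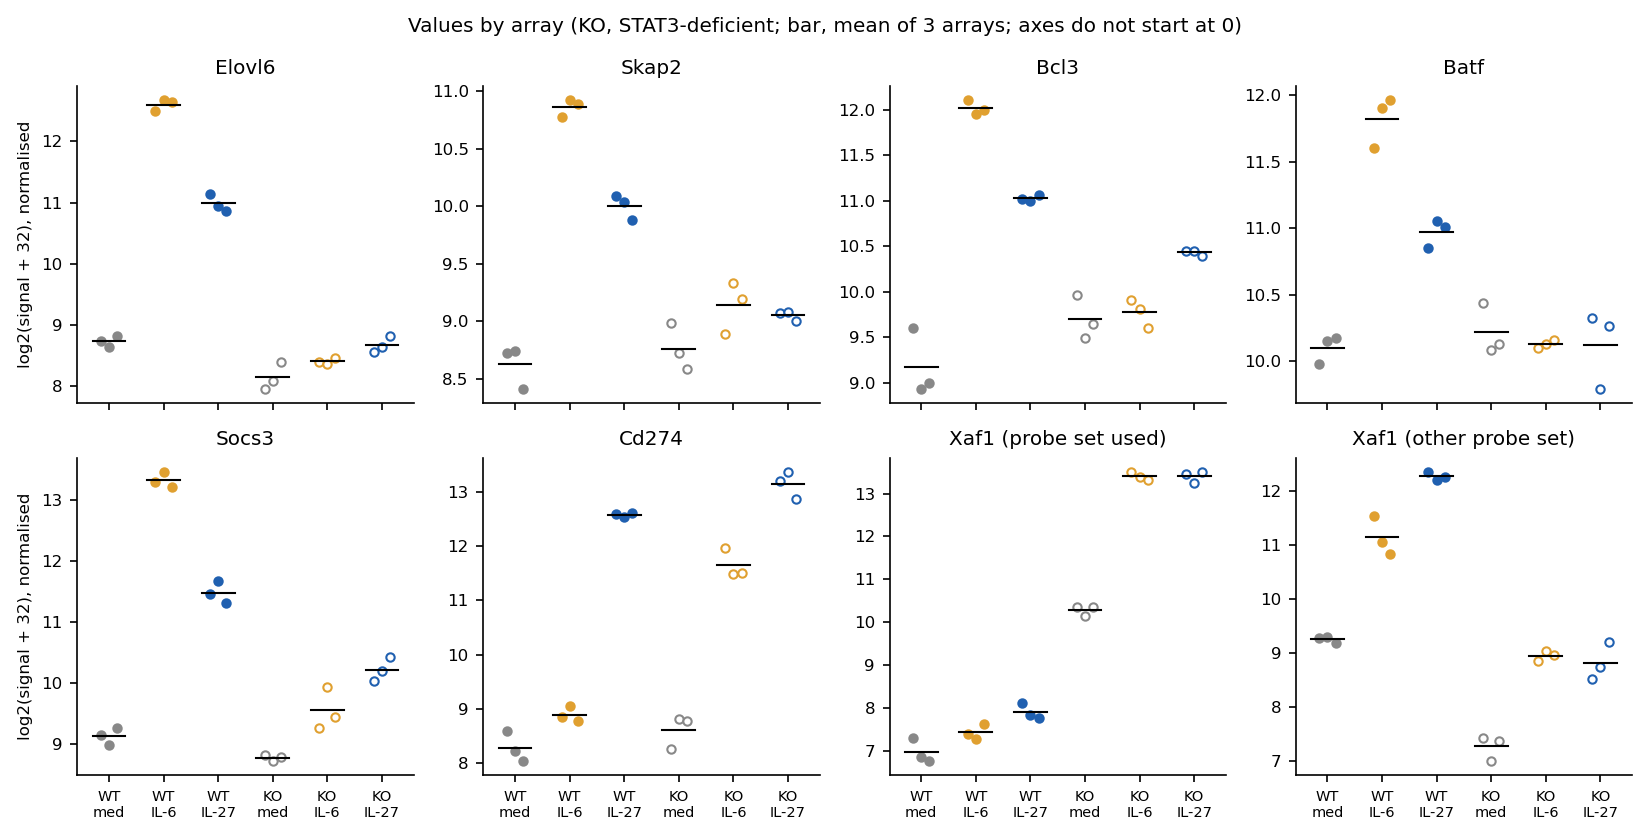
Each panel shows the normalised log2(signal + 32) of a gene or probe set on every array, filled for WT and open for STAT3-deficient (KO) cells, in medium (med), IL-6 or IL-27, with a bar at the mean of 3 arrays. The axes do not start at 0. The 3 open IL-27 points of Elovl6 lie at 8.56 to 8.82 against 10.87 to 11.15 for WT IL-27, while those of Cd274 lie at 12.87 to 13.36 against 12.54 to 12.61.

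Xaf1 was the only gene called with a higher value without STAT3, and its probe sets went opposite ways. Xaf1 encodes XIAP-associated factor 1, an interferon-inducible protein that counters an inhibitor of apoptosis. By the probe set used, the brighter by its mean over all arrays, its values were 7.31, 6.86 and 6.78 in WT medium and 8.12, 7.84 and 7.77 in WT IL-27. In STAT3-deficient cells they were 10.36, 10.15 and 10.36 in medium and 13.45, 13.25 and 13.5 with IL-27. All 6 STAT3-deficient arrays lay above all 6 WT arrays, in medium already. The rise with IL-27 was 0.93 in WT and 3.11 in STAT3-deficient cells, a genotype difference of 2.18 ± 0.21 (95% interval 1.75 to 2.61; limma, adjusted p = 3.83e-05). By the other probe set the values were 9.28, 9.29 and 9.18 in WT medium, 12.35, 12.21 and 12.25 in WT IL-27, 7.42, 7 and 7.37 in STAT3-deficient medium and 8.51, 8.73 and 9.2 in STAT3-deficient IL-27. Here the STAT3-deficient arrays lay below the WT arrays of the same condition, and the genotype difference was -1.47 ± 0.25. Averaged over its probe sets, Xaf1 gave 0.35 and was not called (adjusted p = 0.728), and against a minimum of 2-fold the adjusted p was 0.111. The probe set used was the dimmer in WT cells, with a mean of 7.91 against 12.27 with IL-27. It was the brighter without STAT3, at 13.4 against 8.81, so the rule of choice picked the probe set that was high without STAT3. The direction for Xaf1 is therefore that of 1 probe set, not of the gene. Xaf1 lies on chromosome 11, as Stat3 does, and whether the probe sets read different transcripts or different alleles was not tested.

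Its start window, on the plus strand at chr11:72301379-72301678, is shown because Xaf1 is the other called gene; it too holds neither motif.
Xaf1: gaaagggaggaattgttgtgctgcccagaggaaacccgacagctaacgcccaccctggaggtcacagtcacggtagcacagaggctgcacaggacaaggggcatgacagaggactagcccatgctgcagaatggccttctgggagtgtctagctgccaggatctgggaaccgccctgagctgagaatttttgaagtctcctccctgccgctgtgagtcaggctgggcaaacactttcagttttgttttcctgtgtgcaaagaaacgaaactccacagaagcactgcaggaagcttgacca

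Behind Elovl6, the well-expressed genes with a called rise in WT cells and a smaller value without STAT3 were Skap2, Bcl3, Batf, Lgmn and Socs3. Their differences did not pass the adjusted threshold. Skap2, an adaptor protein of the Src kinase pathway, ran from 8.41 to 8.74 in WT medium and from 9.88 to 10.09 in WT IL-27, and from 8.58 to 8.98 in STAT3-deficient medium and from 9 to 9.08 with IL-27. The WT rise of 1.38 stood against 0.29 without STAT3 (limma, adjusted p = 0.311 for the latter). The genotype difference was -1.09 ± 0.2 (95% interval -1.5 to -0.67; limma, adjusted p = 0.112), and the other probe sets of Skap2 gave -0.53 ± 0.3 and -0.53 ± 0.17. Skap2 was called with the deposited scaling, at -1.26.

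Bcl3 encodes a nuclear IkB protein that works with NF-kB subunits p50 and p52. Its values were 9.6, 8.93 and 8.99 in WT medium, 11.02, 10.99 and 11.06 in WT IL-27, 9.96, 9.49 and 9.64 in STAT3-deficient medium and 10.45, 10.45 and 10.39 in STAT3-deficient IL-27. The IL-27 arrays of both genotypes lay above their medium arrays, and those of WT cells lay above those of STAT3-deficient cells. The rise was 1.85 in WT and 0.73 without STAT3, both called, and the genotype difference was -1.11 ± 0.21 (95% interval -1.57 to -0.66; limma, adjusted p = 0.141). The first WT medium array carried the highest Bcl3 value of its group. Without that array the difference was -1.33 and was called (limma, adjusted p = 0.00308).

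Batf, an AP-1 family factor needed for Th17 cells, showed no called rise without STAT3. Its values were 9.98, 10.15 and 10.17 in WT medium, 10.85, 11.05 and 11.01 in WT IL-27, 10.44, 10.08 and 10.13 in STAT3-deficient medium and 10.32, 9.79 and 10.26 in STAT3-deficient IL-27. The WT IL-27 arrays stood above all others, and the 2 groups of STAT3-deficient arrays overlapped. IL-27 changed Batf by 0.87 in WT cells (limma, adjusted p = 4.42e-04), while the STAT3-deficient estimate was -0.1. The genotype difference was -0.97 ± 0.2 (95% interval -1.38 to -0.56; limma, adjusted p = 0.154).

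Socs3, the feedback inhibitor of gp130 and a textbook STAT3 target, still rose strongly without STAT3. Its values were 9.15, 8.98 and 9.27 in WT medium, 11.45, 11.66 and 11.31 in WT IL-27, 8.82, 8.73 and 8.79 in STAT3-deficient medium and 10.03, 10.19 and 10.42 in STAT3-deficient IL-27. In both genotypes every IL-27 array lay above every medium array, and the WT IL-27 arrays stood highest. The rise was 2.34 in WT, or 5.07-fold, and 1.43 without STAT3, or 2.7-fold (limma, adjusted p = 2.32e-06). The genotype difference of -0.91 ± 0.21 (95% interval -1.36 to -0.46) had an adjusted p of 0.372 in limma. The probe set used for Socs3 is of a type whose probes can match other transcripts, and the others gave -0.38 ± 0.28 and -1.36 ± 0.44.

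The start window of Socs3 is shown for comparison with the called genes. It lies on the minus strand at chr11:117969317-117969616 and holds a match to TTCNNNGAA, the palindromic core of sites that STAT proteins bind, in capitals, beginning 154 bases before the start.
Socs3: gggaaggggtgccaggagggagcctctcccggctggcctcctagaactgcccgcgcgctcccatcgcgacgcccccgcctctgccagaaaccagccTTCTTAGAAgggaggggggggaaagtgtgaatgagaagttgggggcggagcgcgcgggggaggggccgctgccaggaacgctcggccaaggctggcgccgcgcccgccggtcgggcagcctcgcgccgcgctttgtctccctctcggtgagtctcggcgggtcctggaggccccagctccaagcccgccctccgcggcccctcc

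Lgmn, which encodes the lysosomal protease legumain, ran from 10.07 to 10.18 in WT medium and from 10.5 to 10.59 in WT IL-27, and from 9.79 to 9.95 in STAT3-deficient medium and from 9.29 to 9.75 with IL-27. The IL-27 arrays thus lay above medium in WT cells and below it in STAT3-deficient cells, with estimates of 0.43 (called) and -0.33 (limma, adjusted p = 0.135). Ankrd46, which encodes an ankyrin repeat protein, had the same pattern of arrays, with estimates of 0.36 and -0.37, neither called, and a genotype difference of -0.73 ± 0.17 (limma, adjusted p = 0.372), or -0.44 with median centring.

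Apart from Xaf1, 5 of the 20 genes had a called rise without STAT3 that was larger than in WT cells, Samd9l, Daxx, Mov10, 5830468F06Rik and Ppa1. All 5 had called rises in WT cells too. Samd9l, an interferon-inducible restriction factor, ran from 11.62 to 11.85 in WT medium, from 12.75 to 12.95 in WT IL-27, from 11.89 to 11.96 in STAT3-deficient medium and from 13.6 to 13.74 in STAT3-deficient IL-27. The STAT3-deficient IL-27 arrays were the highest of the 4 groups, and the rises were 1.11 and 1.73. The genotype difference of Samd9l was 0.61 ± 0.12 (95% interval 0.37 to 0.86; limma, adjusted p = 0.141). Daxx, a chaperone of histone H3.3 that is also induced by interferon, ran from 11.38 to 11.61 and from 12 to 12.25 in WT cells and from 11.22 to 11.52 and from 12.7 to 12.83 in STAT3-deficient cells. Its rise was 0.6 in WT and 1.34 without STAT3, a difference of 0.74 ± 0.15 (95% interval 0.44 to 1.05; limma, adjusted p = 0.148).

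Mov10, an RNA helicase with antiviral activity, rose by 0.75 in WT and 1.93 in STAT3-deficient cells, a difference of 1.18 ± 0.24 (95% interval 0.68 to 1.67; limma, adjusted p = 0.154). Its second probe set gave -0.26 ± 0.24, so the probe sets differed in sign and their mean gave 0.46, and the STAT3-deficient medium arrays of Mov10 (7.56 to 8.11) lay below those of WT medium (8.25 to 8.43). Without the second STAT3-deficient medium array Mov10 was called at 1.36 (limma, adjusted p = 0.0361). The transcript 5830468F06Rik rose by 3.17 and 4.5, a difference of 1.33 ± 0.32, or 0.86 with the deposited scaling. In medium 5830468F06Rik was lower without STAT3 (6.17 to 6.91 against 8.27 to 8.56), and with IL-27 it was not higher (10.95 to 11.42 against 11.48 to 11.66). For this transcript the larger change thus came with a lower start and not with a higher end. Ppa1, a soluble inorganic pyrophosphatase, rose by 1.81 and 2.44, a difference of 0.63 ± 0.15 (95% interval 0.32 to 0.95; limma, adjusted p = 0.372), and its STAT3-deficient IL-27 arrays (12.04 to 12.25) lay above those of WT IL-27 (11.74 to 11.92).

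Large estimates with wide intervals came from 5 dim probe sets. Hrct1 ran from 5.96 to 6.33 in WT medium, from 7.26 to 8.04 in WT IL-27, from 7.81 to 8.38 in STAT3-deficient medium and from 6.43 to 7.54 in STAT3-deficient IL-27. The order of medium and IL-27 was thus reversed between the genotypes, with a genotype difference of -2.41 ± 0.5 (95% interval -3.45 to -1.37; limma, adjusted p = 0.157). Ms4a7, Speer3, E130317F20Rik and 4930478L05Rik gave -2.34 ± 0.55, -2.18 ± 0.5, -2.06 ± 0.47 and -1.62 ± 0.4, and like Hrct1 each had the lowest mean of the 4 groups in WT medium and a higher level in STAT3-deficient medium.

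Vipr1 and Sebox were the genes with a called fall without STAT3. Vipr1 encodes a receptor for vasoactive intestinal peptide that naive T cells express. It ran from 9.98 to 10.18 in WT medium and from 10.01 to 10.25 in WT IL-27, groups that overlapped, and from 11.09 to 11.24 in STAT3-deficient medium and from 10.38 to 10.4 with IL-27, groups that did not. The fall without STAT3 was -0.77 (limma, adjusted p = 0.00122) and the genotype difference -0.81 ± 0.19 (95% interval -1.21 to -0.4; limma, adjusted p = 0.387), or -0.46 with median centring. For Sebox, a homeobox gene, the fall was -1.26 and the genotype difference -1.72 ± 0.43 (limma, adjusted p = 0.47). Sebox ran from 6.58 to 8.2 in STAT3-deficient IL-27, the widest of its groups, and without the third of those arrays it was called at -2.13.

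**Figure D2:**
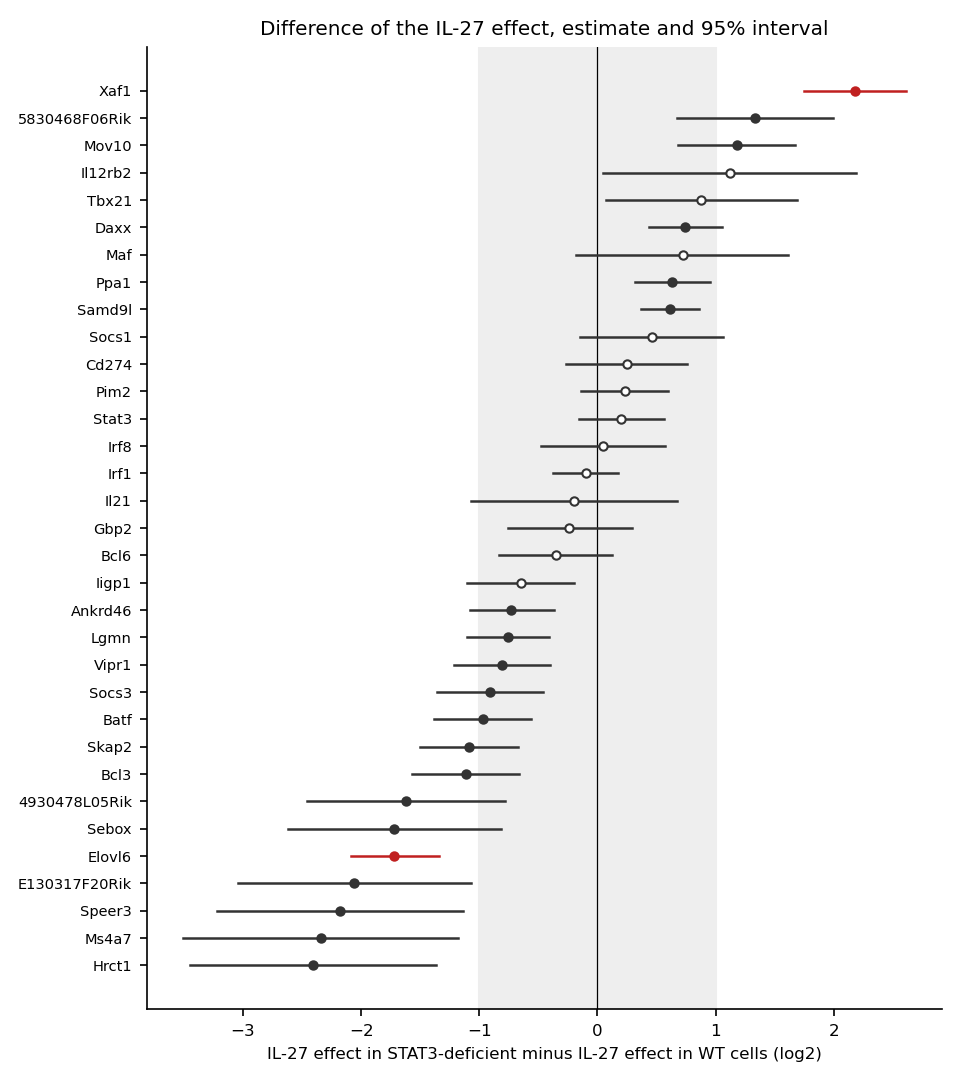
Estimates of the genotype difference in the IL-27 effect (log2) with 95% intervals for the 20 genes of smallest p (filled) and the other genes chosen by name (open), from 3 arrays per group; the 2 called genes are in red and the grey band spans 2-fold either way. The interval of Elovl6 ends at -1.34 and that of Cd274 runs from -0.27 to 0.76.

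Several well-known IL-27 target genes had large rises in both genotypes. Cd274, the gene of the inhibitory ligand PD-L1, ran from 8.05 to 8.6 in WT medium, from 12.54 to 12.61 in WT IL-27, from 8.26 to 8.81 in STAT3-deficient medium and from 12.87 to 13.36 in STAT3-deficient IL-27. Medium and IL-27 arrays were far apart in both genotypes, and the rises were 4.28 (19.5-fold) and 4.53 (23.1-fold). The genotype difference of Cd274 was 0.25 ± 0.25 (limma, adjusted p = 0.801), and its interval of -0.27 to 0.76 held no change of 2-fold either way.

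Irf1, an interferon-induced transcription factor, rose by 2.77 in WT and 2.67 in STAT3-deficient cells. Its genotype difference of -0.1 ± 0.13 had the tightest interval among the genes chosen by name (-0.38 to 0.17). Irf8, a factor of the same family, rose by 2.74 and 2.79 (difference 0.044 ± 0.25, interval -0.48 to 0.57). Socs1, a feedback inhibitor of Janus kinases, rose by 3.28 and 3.74 (0.46 ± 0.29, interval -0.15 to 1.06). Pim2, a survival kinase, rose by 2.2 and 2.43 (0.23 ± 0.18, interval -0.14 to 0.6). None of these 5 differences, Cd274 included, was called, and for Cd274, Irf1, Irf8 and Socs1 the sign depended on the scaling. With the deposited scaling Cd274 gave -0.16, Irf1 -0.095, Irf8 -0.45 and Socs1 -0.12, and with median centring they gave 0.09, 0.15, -0.21 and 0.13.

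Gbp2, a guanylate-binding protein, rose by 5.3 in WT and 5.06 in STAT3-deficient cells, with a difference of -0.24 ± 0.25 (interval -0.76 to 0.29), or -0.51 with the deposited scaling. Iigp1, an immunity-related GTPase, rose by 5.62, or 49.1-fold, and by 4.97, or 31.3-fold. The Iigp1 difference was -0.65 ± 0.21 (interval -1.1 to -0.2; limma, adjusted p = 0.597). With IL-27 the Iigp1 arrays of STAT3-deficient cells (14.9 to 15.04) lay above those of WT cells (14.64 to 14.74), and in medium they did so too (9.6 to 10.3 against 8.91 to 9.28). The smaller change of Iigp1 thus came with a higher level in medium. A second probe set of Iigp1 rose by 5.84 and 5.62, with a difference of -0.23 ± 0.31.

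Among the T cell differentiation genes chosen by name, the intervals were wider. Tbx21, which encodes the Th1 factor T-bet, ran from 6.14 to 6.84 in WT medium, from 8.41 to 8.73 in WT IL-27, from 6.61 to 6.71 in STAT3-deficient medium and from 9.08 to 10.02 in STAT3-deficient IL-27. The rise was called in both genotypes, at 2.03 and 2.92, and the difference was 0.88 ± 0.39 (interval 0.076 to 1.69; limma, adjusted p = 0.677). With the deposited scaling the difference of Tbx21 was 0.46. Il12rb2, an IL-12 receptor chain and T-bet target, rose by 1.34 and 2.46, with a difference of 1.12 ± 0.51 (interval 0.046 to 2.19; limma, adjusted p = 0.677). Bcl6, the follicular helper factor, rose by 1.41 and 1.06 (-0.35 ± 0.23, interval -0.83 to 0.12). Maf and Il21 had no called IL-27 effect in either genotype, with differences of 0.72 ± 0.43 and -0.2 ± 0.41.

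Across all genes the responses of the genotypes overlapped. IL-27 raised 324 genes in WT cells (2.71%) and 392 in STAT3-deficient cells (3.27%), and 245 were raised in both, 75.6% of the WT genes and 62.5% of the STAT3-deficient genes. It lowered 240 (2%) and 204 (1.7%), and 99 were lowered in both, 41.2% and 48.5% of the lists. No gene was called in opposite directions. Of the 79 genes called raised in WT cells only, of the 147 called raised in STAT3-deficient cells only, and of the 141 and 105 called lowered in WT or STAT3-deficient cells only, 0 had a called genotype difference (limma; over all genes 878 had an unadjusted p under 0.05), so a call in a single genotype did not by itself show a difference. The 324 genes raised in WT cells had a median change of 1 there and 0.97 without STAT3. For the 392 raised in STAT3-deficient cells the medians were 0.68 in WT and 0.95 without STAT3. For the 240 lowered in WT cells they were -0.59 in WT and -0.38 without STAT3, and for the 204 lowered in STAT3-deficient cells -0.42 and -0.58. In each set, choosing genes by the value in a genotype favours that value. The 2 comparisons share no arrays, and over the 11971 genes, which are not independent, Pearson's r between them was 0.5, against 0.26 for IL-6.

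To choose IL-27 genes without favouring a genotype, the mean of both IL-27 effects was tested. Its estimate does not enter that of the difference in a design of equal groups. This test was added after other results had been seen. Both tests use the same estimate of a gene's spread, so a call by the mean favours genes with a small SE. The shares below with an interval within 2-fold or a small p depend on that SE too and are not free of the choice. The test of the mean called 529 genes as raised (4.42%) and 468 as lowered (3.91%). In the raised genes the median change was 0.6 in WT and 0.72 in STAT3-deficient cells and the median genotype difference 0.14, against 0.034 over all genes. The 95% interval excluded a 2-fold difference either way for 410 of the 529, or 77.5%, against 66.5% of all genes, and the estimate went beyond 2-fold for 23. At an unadjusted p under 0.05, 36 of the 529 were lower and 76 higher without STAT3 (21.2%, against 7.33% of all genes). That split depended on the scaling, being 17 lower and 107 higher with median centring, while the deposited scaling gave 45 and 51. In the 468 lowered genes the medians were -0.44 and -0.39, and the interval excluded 2-fold for 433 (92.5%). The 156 genes raised by 2-fold or more had median changes of 1.52 and 1.71, and for 66 of them the interval reached 2-fold.

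**Figure D3:**
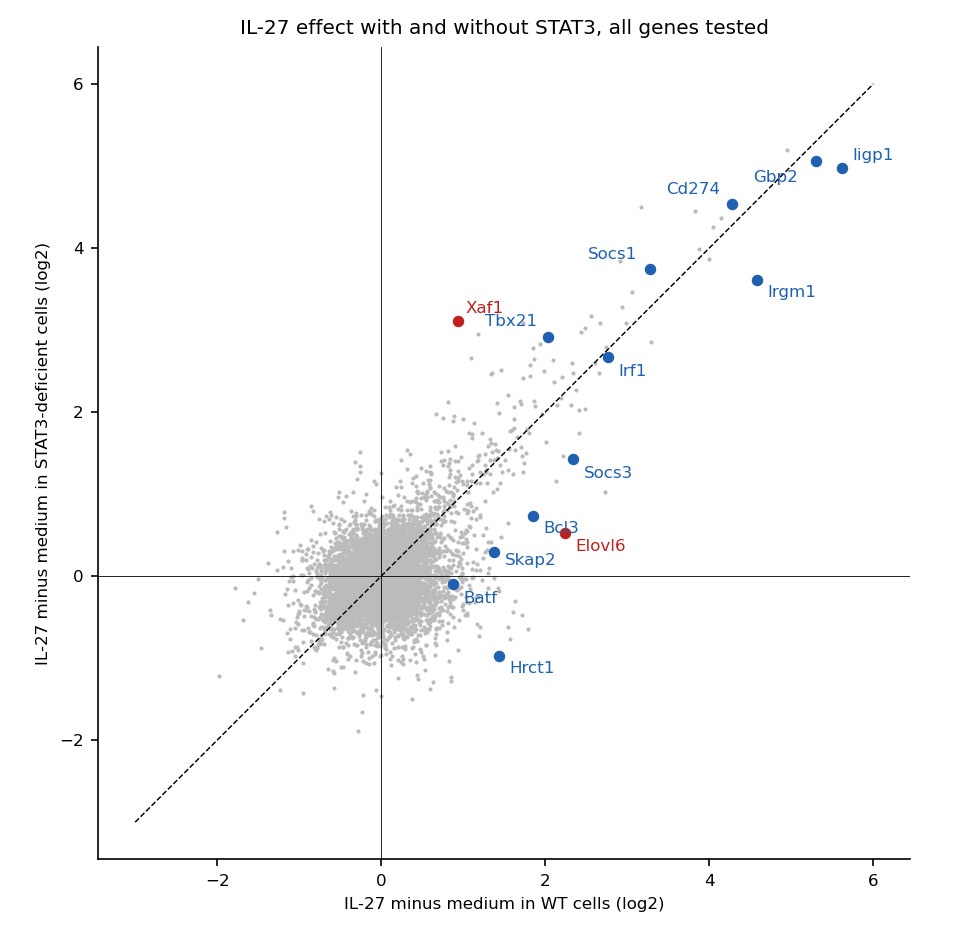
Change with IL-27 against medium (log2) in WT cells (horizontal) and in STAT3-deficient cells (vertical) for all 11971 genes tested, each point the mean of 3 arrays against 3. The dashed line marks equal changes; the 2 called genes are in red, with Elovl6 below the line (2.24 and 0.53) and Xaf1 above it (0.93 and 3.11), and other named genes in blue.

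Genes were also counted by function, and each list is set beside all genes (0.0167% called, 7.33% at an unadjusted p under 0.05, median 0.034). Of all 11971 genes, 6526 lay above 0 and 5445 below. The reported STAT3 targets had 35 measured members and 0 called differences. At an unadjusted p under 0.05 there were 5 lower and 2 higher (20%), the largest being Bcl3, Batf, Fas and Socs3. Fas, the death receptor, had a called rise of 1.34 in WT cells and an uncalled 0.42 without STAT3, with a difference of -0.92 ± 0.38. The list's median was 0.067, and -0.028 with the deposited scaling, with 17 members below and 18 above 0. IL-27 raised 10 of the 35 in WT cells and 6 in STAT3-deficient cells, so most members had no called IL-27 effect at 3 hours in either genotype.

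The 50 antiviral interferon-stimulated genes were nearly all raised by IL-27, 43 in WT and 45 in STAT3-deficient cells, with median rises of 1.42 and 1.77. Xaf1 was the 1 member called, 38 members lay above 0 and 12 below, and the median difference was 0.31. At an unadjusted p under 0.05, 14 were higher and 2 lower (32%). With the deposited scaling the median was 0.22 and those counts were 6 and 1, so the size of this shift depended on the scaling while its direction did not over the 3 scalings tried. Dhx58, a RIG-I-like receptor, rose by 1.46 and 2.51 (1.05 ± 0.4, but 0.63 with the deposited scaling and 0.24 with the mean of its probe sets), and Usp18, the protease that removes ISG15, rose by 1.85 and 2.78 (0.93 ± 0.38). Among the 8 interferon regulatory factors, Irf7, the factor of the interferon amplification loop, ran from 9.82 to 10.16 and from 11.76 to 11.95 in WT cells and from 9.93 to 10.09 and from 12.51 to 12.81 in STAT3-deficient cells. The medium arrays of Irf7 overlapped, and its IL-27 arrays were higher without STAT3, with a difference of 0.79 ± 0.21 (interval 0.34 to 1.23; limma, adjusted p = 0.488). Irf9, a DNA-binding factor of the type I interferon response, went the other way, with rises of 2.01 and 1.63 and a difference of -0.38 ± 0.13 (limma, adjusted p = 0.612), or -0.17 with median centring.

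The interferon-inducible GTPases, which attack the vacuoles of intracellular pathogens, had the largest rises of any list. All 9 measured members were raised in both genotypes, with medians of 4.14 and 4.26. The median difference was -0.13, with 3 lower and 0 higher at an unadjusted p under 0.05 (Irgm1, Iigp1 and Igtp) and 0 called. Irgm1 ran from 8.75 to 9 in WT medium and from 9.57 to 10.57 in STAT3-deficient medium, and from 13.38 to 13.5 and from 13.64 to 13.79 with IL-27. The medium arrays of Irgm1 lay higher without STAT3, and the rises were 4.58 and 3.61, a difference of -0.97 ± 0.25 (interval -1.49 to -0.45; limma, adjusted p = 0.474). Without the third STAT3-deficient medium array Irgm1 was called at -1.24. Igtp rose by 3.29 and 2.85, a difference of -0.44 ± 0.16, or -0.29 with median centring.

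For the MHC class I and antigen processing genes the intervals were narrow. All 18 had a 95% interval within 2-fold either way, 0 had an unadjusted p under 0.05, 12 were raised in WT and 13 in STAT3-deficient cells, and the median difference was 0.15. Tap2, a subunit of the peptide transporter, rose by 1.34 and 1.62 (0.28 ± 0.14), and Erap1, the trimming peptidase, by 0.94 and 1.2 (0.26 ± 0.21).

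In the Th1 program, 11 of 12 members lay above 0, 3 of them at an unadjusted p under 0.05, and 0 were called. Above the all-gene median lay 10 as reported, and 9 with the deposited scaling or with median centring. With each of these 2 scalings 2 members were higher at an unadjusted p under 0.05. The chemokine gene Ccl5 was lowered in WT cells, with a change of -1.5 (6.91 to 7.23 in medium and 5.3 to 5.74 with IL-27). Without STAT3 its arrays overlapped (8.08 to 8.68 and 8.1 to 8.57), and the difference was 1.47 ± 0.38 (interval 0.66 to 2.27; limma, adjusted p = 0.485). The WT IL-27 values of Ccl5 lie near 5, the log2 of the added constant, on which the size of the change depends. With a constant of 1 the difference was 2.75 and with 64 it was 1.03. In medium Ccl5 was higher without STAT3, by 1.36. Of 6 Th2 genes, Gata3 was the 1 with an unadjusted p under 0.05, with estimates of -0.48 and 0.46, neither called, and a difference of 0.94 ± 0.27 (limma, adjusted p = 0.522). The Th17 program had 12 measured members and Batf as the 1 with an unadjusted p under 0.05.

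Among 17 JAK-STAT feedback inhibitors the counts were 3 lower and 1 higher (23.5%), with Socs3 and Socs4 lower and Usp18 higher among those with the largest estimates. The 21 receptors, kinases and STATs had 1 lower and 3 higher (19%), with 14 of 21 above 0. The lower one was Jak3, a kinase of the common gamma chain, with a called rise of 1.3 in WT, an uncalled 0.41 without STAT3 and a difference of -0.89 ± 0.32. The higher ones were Il12rb2, Ifngr2, a chain of the interferon gamma receptor (0.39 ± 0.18), and Il6st (0.35 ± 0.16), the last read from the list after its value was seen. In the fatty acid and cholesterol synthesis list Elovl6 stood alone. It was the 1 called of 18 members and also the 1 with a called rise in WT cells, and the only other member with an unadjusted p under 0.05 was Scd2, a desaturase, with estimates of -0.0019 and -0.68 and a difference of -0.68 ± 0.31. The list's median was 0.06.

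The remaining T cell lists had 0 called members. Of 22 apoptosis regulators, 3 were lower and 4 higher at an unadjusted p under 0.05 (31.8%), with a median of 0.034. Fas and Bak1 (0.64 ± 0.3, and 0.36 with the deposited scaling) were among them, and with the deposited scaling the counts were 1 and 2. Of 19 genes of the NF-kB family and its inhibitors 2 were lower and 1 higher (15.8%), of 22 co-inhibitory and co-stimulatory molecules 0 were lower and 3 higher (13.6%), and of 15 PIM kinase and growth genes 1 was lower and 1 higher (13.3%). Of 20 naive and homing genes, IL-27 lowered 10 in WT and 8 in STAT3-deficient cells, and 2 were lower and 1 higher. Igfbp4, a binding protein of insulin-like growth factors, rose by 0.53 in WT cells and had an estimate of -0.019 without STAT3, a difference of -0.55 ± 0.15 (limma, adjusted p = 0.488), or -0.22 with median centring. Of 29 activation and immediate early genes 1 was lower, of 18 cell cycle genes 1 was lower and of 16 glycolysis genes 1 was higher. The marker lists of B cells (14) and of CD8 T and NK cells (8) had 0 members with an unadjusted p under 0.05 and 0 called by limma, and of 15 myeloid markers 2 were lower, S100a8 and Siglech, and 1 higher, Lyz1.

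**Figure D4:**
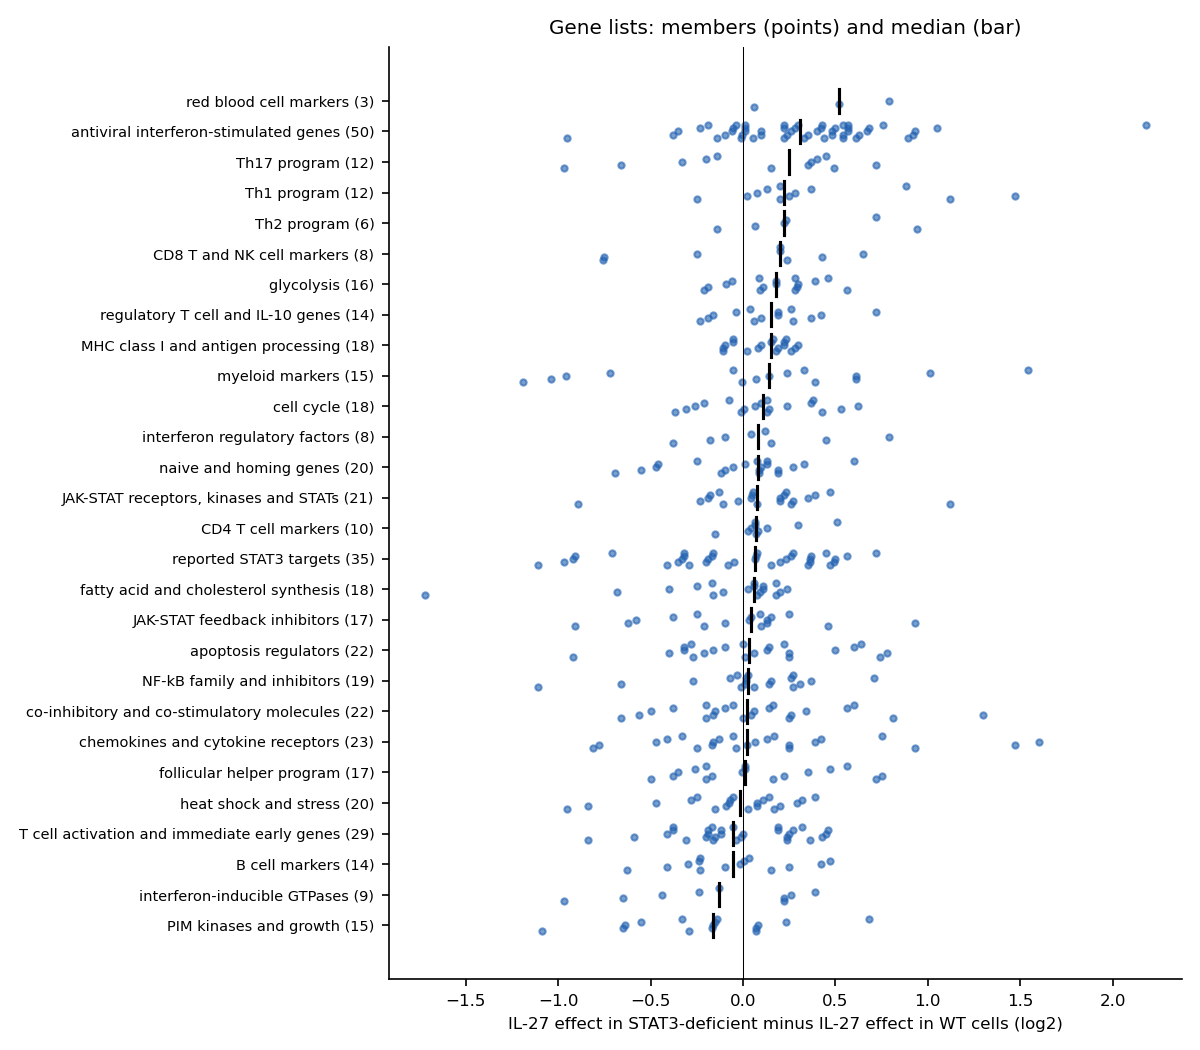
Genotype difference in the IL-27 effect (log2) for the measured members of each gene list (points; number of members in parentheses) with the list's median (black bar), from 3 arrays per group. The medians lie between -0.16 and 0.52, the latter from 3 red blood cell markers; the leftmost point of the fatty acid list is Elovl6 at -1.72 and the rightmost of the antiviral list is Xaf1 at 2.18.

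Whether STAT3 loss altered the IL-27 response as it altered the IL-6 response was tested directly. The genotype difference in the IL-6 effect was called for 369 genes (3.08%), 219 higher (1.83%) and 150 lower (1.25%), and shares its medium arrays with that of IL-27, so the counts are not set against each other. In the difference between the genotype differences the medium arrays cancel, and it reduces to IL-27 against IL-6 in STAT3-deficient cells minus IL-27 against IL-6 in WT cells. It was called for 148 genes (1.24%), 78 higher (0.652%) and 70 lower (0.585%). Higher means that the genotype difference was higher for IL-27 than for IL-6. The value compares log2 changes and not shares of a response. It is thus above 0 also where a gene lost both rises in full and its IL-6 rise was the larger. The split between directions rested on the scaling. With median centring 56 were called and 41 of them, or 73.2%, were higher, against 52.7% as reported.

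The reported STAT3 targets lay on the higher side. Of 35 members 11 were called higher and 0 lower, with a median of 0.66 against 0.015 over all genes. Socs3 is the clearest member. Its genotype difference was -0.91 for IL-27 and -3.41 for IL-6, whose rise was 4.18 in WT cells and 0.77 without STAT3, and the difference of these was 2.5 (limma, adjusted p = 1.80e-06). For Bcl3 the IL-6 rise went from 2.84 to 0.079 and the value was 1.64 (limma, adjusted p = 2.25e-04). For Bcl6 it was 1.28 (adjusted p = 0.00431), for Stat3 1.07 (adjusted p = 0.00168) and for Batf 0.85 (adjusted p = 0.0358). The value of Stat3 is that of 1 probe set. Its other 3 gave genotype differences of -1.01, 0.066 and 0.073 for IL-27 and -0.83, -0.79 and -0.4 for IL-6. By the first of these the genotype difference was lower for IL-27. The WT rises of Batf were 0.87 with IL-27 and 1.72 with IL-6, and its estimates without STAT3 were -0.1 and -0.092. For Batf the value thus went with the larger IL-6 rise in WT cells. Junb, Hif1a, Il21r, Il6st, Il4ra and Gadd45g, read from the list after their values were seen, were the other members called.

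Elovl6 had a genotype difference below 0 for both cytokines. IL-6 raised it by 3.85 in WT cells and its value without STAT3 was 0.26, so the genotype difference was -3.59 for IL-6 against -1.72 for IL-27, and the 2 differed by 1.88 (limma, adjusted p = 6.40e-06). The IL-6 rise of Elovl6 in WT cells was also the larger. Igfbp4 gave 2.3 (limma, adjusted p = 9.98e-08), with an IL-6 rise of 2.91 in WT cells and a value of 0.067 without STAT3. With IL-27 these were 0.53 and -0.019, so the value of Igfbp4 also went with the larger IL-6 rise in WT cells. Map3k8, a kinase of the NF-kB and MAP kinase pathways, gave 3 (adjusted p = 3.84e-05). Skap2 gave 0.77, which was not called (adjusted p = 0.0638).

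The interferon-type genes lay on the lower side. Of 9 GTPases 7 were called lower and 0 higher, with a median of -1.87, and of 18 MHC class I genes 4 were lower. Cd274 rose with IL-6 by 0.6 in WT cells and by 3.03 without STAT3, a genotype difference of 2.43, where that of IL-27 was 0.25, and the 2 differed by -2.18 (limma, adjusted p = 3.91e-05). Irgm1 gave -2.4 (adjusted p = 1.35e-05), Iigp1 -2.28 (adjusted p = 5.56e-06), Igtp -1.96 (adjusted p = 1.80e-06) and Irf1 -0.89 (adjusted p = 8.35e-04). For these genes the IL-6 effect was larger without STAT3 and the IL-27 effect was already large in both genotypes. Gbp2 did not follow them, at 0.064 (adjusted p = 0.999), with a genotype difference of -0.3 for IL-6. Of the 50 antiviral genes 3 were called lower and 1 higher. Samd9l (-0.051), Daxx (-0.15) and Xaf1 (-0.48) were not called, and their genotype differences for IL-6 were 0.67, 0.9 and 2.66. The values of Xaf1 are again those of 1 probe set, and the other gave -0.21 for IL-6.

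**Figure D5:**
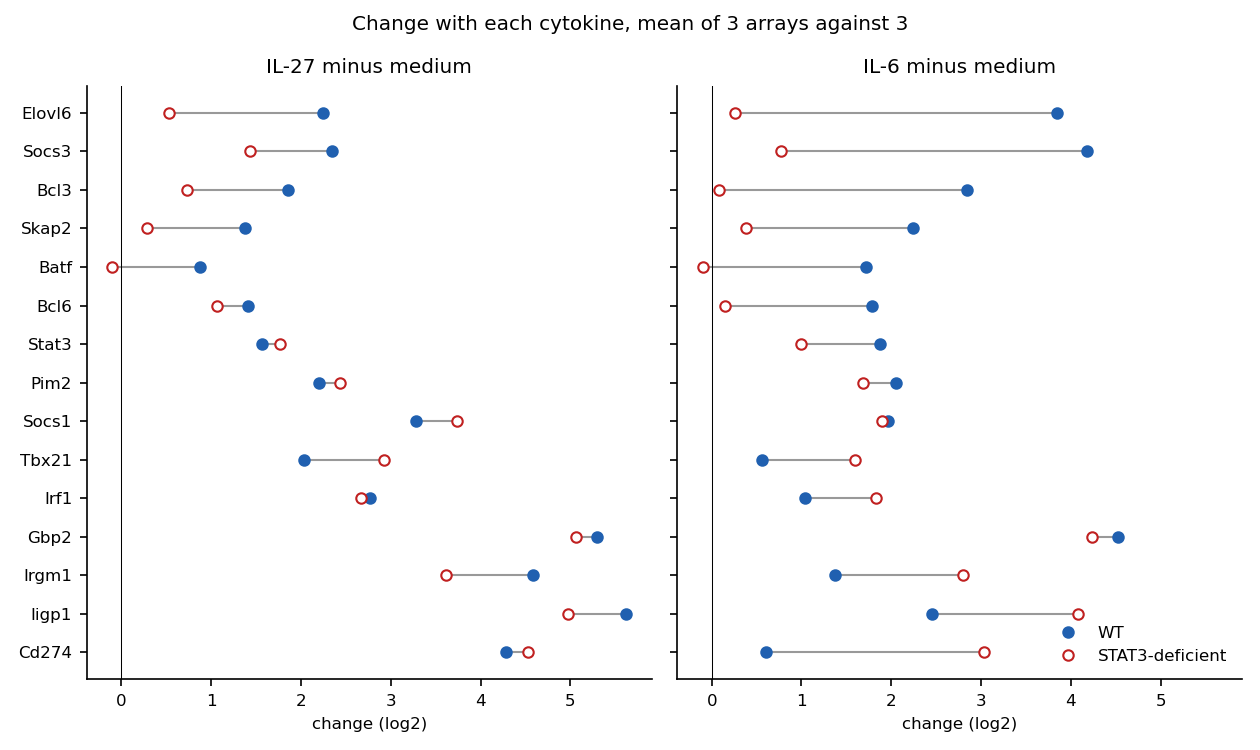
Change with IL-27 (left) and with IL-6 (right) against medium (log2, mean of 3 arrays against 3) in WT (filled) and STAT3-deficient cells (open) for 15 named genes, joined by a line. For Socs3 the points lie at 2.34 and 1.43 with IL-27 and at 4.18 and 0.77 with IL-6; for Cd274 they lie at 4.28 and 4.53 and at 0.6 and 3.03.

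The level reached with IL-27 was compared as well, as STAT3-deficient against WT arrays with IL-27. This called 1945 genes (16.2%), 1152 higher (9.62%) and 793 lower (6.62%) without STAT3, and in medium 3190 genes (26.6%) differed. With median centring the same comparison gave 422 higher and 2143 lower, so its balance of directions depended on the scaling, leaving out the first or the second WT IL-27 array left 1243 and 1201 genes, and with a covariate for the mean of 29 B cell and myeloid markers 224 genes were called. Of the 14 B cell markers 9 and of the 15 myeloid markers 6 were called higher without STAT3 and 0 lower. Genotype, these markers, the array medians and the control ratios moved together, and their parts in the level cannot be told apart. Within that limit, the difference was -2.31 for Elovl6 (limma, adjusted p = 2.18e-09), -1.26 for Socs3 (adjusted p = 3.45e-05), -1.01 for Lgmn (adjusted p = 2.26e-05), -0.95 for Skap2 (adjusted p = 2.24e-04), -0.85 for Batf (adjusted p = 5.81e-04) and -0.59 for Bcl3 (adjusted p = 0.0129). These 6 were picked above for a lower IL-27 effect from the same IL-27 arrays, so their direction here adds no support. Samd9l (0.81), Daxx (0.65) and Irf7 (0.78) were called higher. Samd9l and Daxx were picked by the ranking and Irf7 by the size of its genotype difference. Both choices rest on the same IL-27 arrays, so these directions add no support either. The genotype difference in the IL-27 effect was called for 2 genes with the marker covariate too.

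Start windows from RefSeq were found for 17 of the 20 genes, 22 windows in all. TTCNNNGAA, which reads the same on both strands, occurred in 1 of the 22 (4.55%), that of Socs3, against 8.3% of 32851 windows of the same length. A form of the interferon response element, GAAA followed after any 2 bases by GAAA again and searched on both strands, occurred in 0 of the 22 against 3.44% of all windows. A match is a description of the letters in 300 bases and no match says nothing of sites elsewhere.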

How the data were processed

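Total RNA of the sorted cells was measured on 18 arrays. Per the labels' processing notes, the authors used GCOS, version and algorithm not given in the sources used here. What was deposited is an intensity per probe set on a linear scale, whose mean after trimming 2% at each end was 500 on every array. Of 45101 probe sets, 64 controls were left out. In GEO's platform annotation 34945 others had 1 gene symbol, 932 had several and 9160 had none, and only the first kind were named. For arrays, their number limits the precision.

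Signals were taken as log2(signal + 32), which shrinks changes of dim genes, and quantile-normalised, since the array medians differed by 1.82-fold. Probe sets above their array median on at least 3 arrays were kept (26860), and a gene's value is that of its brightest probe set by the mean over arrays. A limma model (version 3.58.1, R 4.3.3) with 6 group means, eBayes with a variance trend, 12 residual and 6.25 prior degrees of freedom was fitted to all 18 arrays, with two-sided tests adjusted by Benjamini-Hochberg over all genes. It was tested on simulated data. No 2 arrays were identical (highest correlation 0.9802).

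Named genes are the 20 with the smallest p, 18 fixed genes, of which 16 were measured, and up to 4 members of each of 28 lists by size of the difference. Members, lists and rules were chosen with earlier results of these data known, and other genes are said to be chosen after their values were seen. Promoter sequences are RefSeq's (GRCm38.p6), from a table that is not complete. Alternatives were scaling, added constant, filter, mean of probe sets, variance model, array weights, fewer arrays, a 2-fold minimum, replicate blocks, a marker covariate, and leaving out arrays.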

Additional observations from a re-analysis of the deposited data

Results flagged for a closer look

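These results are listed because the effect of a cytokine, or the difference between cytokines, differed between the genotypes by a test of that difference. The genotype difference in the IL-27 effect was called by limma for 2 genes, with a value of -1.72 for Elovl6 and 2.18 for Xaf1. All 3 STAT3-deficient IL-27 arrays of Elovl6 lay below all 3 WT IL-27 arrays. Its STAT3-deficient medium arrays (7.96 to 8.4) also lay below those of WT medium (8.65 to 8.83). The order with IL-27 alone thus does not show a difference in the IL-27 effect. The sign of Xaf1 was that of 1 probe set.

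The genotype difference in log2 change differed between IL-27 and IL-6 for 148 genes. Among the genes chosen by name these were Socs3 (2.5), Bcl3 (1.64), Bcl6 (1.28), Stat3 (1.07) and Batf (0.85), whose genotype difference was higher for IL-27 than for IL-6. They also include Iigp1 (-2.28), Cd274 (-2.18) and Irf1 (-0.89), for which it was higher for IL-6. The value of Stat3 is that of 1 probe set, and by 1 other the genotype difference was lower for IL-27 (-1.01) than for IL-6 (-0.83).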

How the results depend on the processing

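Elovl6 was called in 27 of 28 alternatives, with values from -2.01 to -1.59, and Xaf1 in 26. The genotype difference in the IL-27 effect was called for 1 gene with the mean of all probe sets, 13 with array weights, 6 without the STAT3-deficient arrays numbered 3, and 0 against a minimum of 2-fold (limma; 8 at an unadjusted p under 0.05). Leaving out 1 array gave 2 to 4 genes, 4 without the third STAT3-deficient IL-27 array, Sebox and Shoc2 being added. IL-27 against IL-6 was called for 56 genes with median centring, 252 with array weights, 8 against the 2-fold minimum (32 unadjusted), 306 with the replicate block within genotype, and 106 to 143 when leaving out 1 array. STAT3-deficient against WT with IL-27 was called for 18 genes against the 2-fold minimum, 224 with the marker covariate, and 1201 to 1659 when leaving out 1 array (1243 and 1201 without the first and the second WT IL-27 array). What the numbers in the sample names stand for is not given, and the values do not settle whether they pair samples. Within a genotype 3 of 6 pairs had r over 0.1 (-0.046 to 0.22), and 6 of 12 arrays correlated best with their own number. With that number as a replicate block the 3 comparisons were called for 3, 212 and 2286 genes, and for 3 genes in the first with the block within genotype. Of the 122 genes named only 2 were called as reported, so most of their values had no call to lose. The count that kept their side therefore says little of stability. Of 3406 values of single genes recomputed, 3386 kept their side of the threshold, 3 lost a call (Elovl6 against the minimum, and Xaf1 there and with the mean of probe sets), 17 gained a call, and 35 uncalled values changed sign. The cause of these changes was not tested. With 3 arrays per group the median SE of the genotype difference was 0.26, and 66.5% of genes had an interval within 2-fold either way. The WT and STAT3-deficient arrays also differed in B cell and myeloid markers, in array medians and in the control ratios, which cannot be told apart from genotype.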
